A study of Rattus norvegicus with 4 samples.

Results

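Described here are 9 genes of cytokine signalling in rat soleus, the slow postural muscle of the hindlimb: the cytokine Il15, the receptor chains Il6r and Il6st, the kinase Jak2, the transcription factors Stat3 and Stat5b, and the inhibitors Socs2, Socs3 and Cish. They were selected on earlier results of the comparison reported below, control against unloaded pools, together with their place in one pathway. The values of that comparison are therefore a description of these genes, and no p-value is given for them. The platform's annotation assigned 14 probe sets to these symbols alone, of 8740 probe sets and 4736 named genes on the array, and no probe set shared between several genes named any of them. A probe set is the group of array features that reads 1 transcript or transcript variant.

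The data were 4 Affymetrix arrays from female rats in 2 groups of 2. Control rats were caged with their usual activity, and unloaded rats could not stand on their hind legs for 10 h a day on 11 days. The labels name neither strain nor age, and no genetic change for either group. Each array held soleus RNA pooled from 4 to 5 rats, so n = 2 pools per group, and spreads describe pools, not single animals. In whole muscle, fewer cells of a type and less RNA per cell cannot be told apart. The number of arrays limits the precision of every value.

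Cytokines such as Il15 and those of the interleukin 6 family bind receptors that have no kinase of their own. The receptors carry Janus kinases (JAKs), which phosphorylate STAT factors when the receptor is occupied, and the STATs then enter the nucleus and activate genes. Among the genes so activated are the SOCS proteins and Cish, which bind receptors or JAKs and shut the signal off. Muscle makes Il15 and is itself a target of interleukin 6 and growth hormone, which act through Stat3 and Stat5b.

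Cish is a textbook target of STAT5, and its start region is shown because it was the only member window that held the STAT core motif. The motif searched was TTCNNNGAA, which reads the same on both strands, in the 250 bases before the transcript start that RefSeq gives for each gene. Windows were available for 8 of the 9 genes. The Cish window, on the plus strand of GRCr8 at chr8:116850719-116850968, lies outside the gene and is given 5′ to 3′ with the motif matches in capitals:
Cish: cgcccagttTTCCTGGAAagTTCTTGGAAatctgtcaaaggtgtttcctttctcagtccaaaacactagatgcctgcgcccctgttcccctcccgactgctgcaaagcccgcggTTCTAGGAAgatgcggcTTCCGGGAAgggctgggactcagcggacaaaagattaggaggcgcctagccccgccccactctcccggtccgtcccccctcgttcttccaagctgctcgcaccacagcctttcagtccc

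The 4 matches begin 241, 230, 136 and 119 bases before the start and lie in 2 close pairs that do not overlap. At least 1 match was found in 7.67% of all 33469 windows of that length, and 4 or more in 2 of them, the Cish window and 1 other. The windows of Il15, Il6r, Il6st, Jak2, Socs3, Stat3 and Stat5b held no match, which says only that these letters are not in those 250 bases. The windows of all of these genes but Jak2 overlap a longer RefSeq model of the gene, so they are not all sequence upstream of it. A match is a description of the sequence, and binding was not measured here.

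Il15 was higher in the unloaded soleus on each of its 3 probe sets, and Socs3 was lower on its only probe set. The other 7 genes did not pass the test, and their log2 differences on tested probe sets lay between -0.24 for Il6st and 0.47 for Cish. Of the 14 probe sets, 11 had a mean signal above the filter for dim probe sets and were tested; the 3 others belong to Jak2 and Stat3. Among the 11, 3 were called higher, against a background of 2.59% of all 5257 tested probe sets, and 1 was called lower, against 2.66%. A call is an adjusted p under 0.05 in limma's test over all tested probe sets. Because the genes were chosen with this comparison known, nothing is read from these counts.

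**Figure D1:**
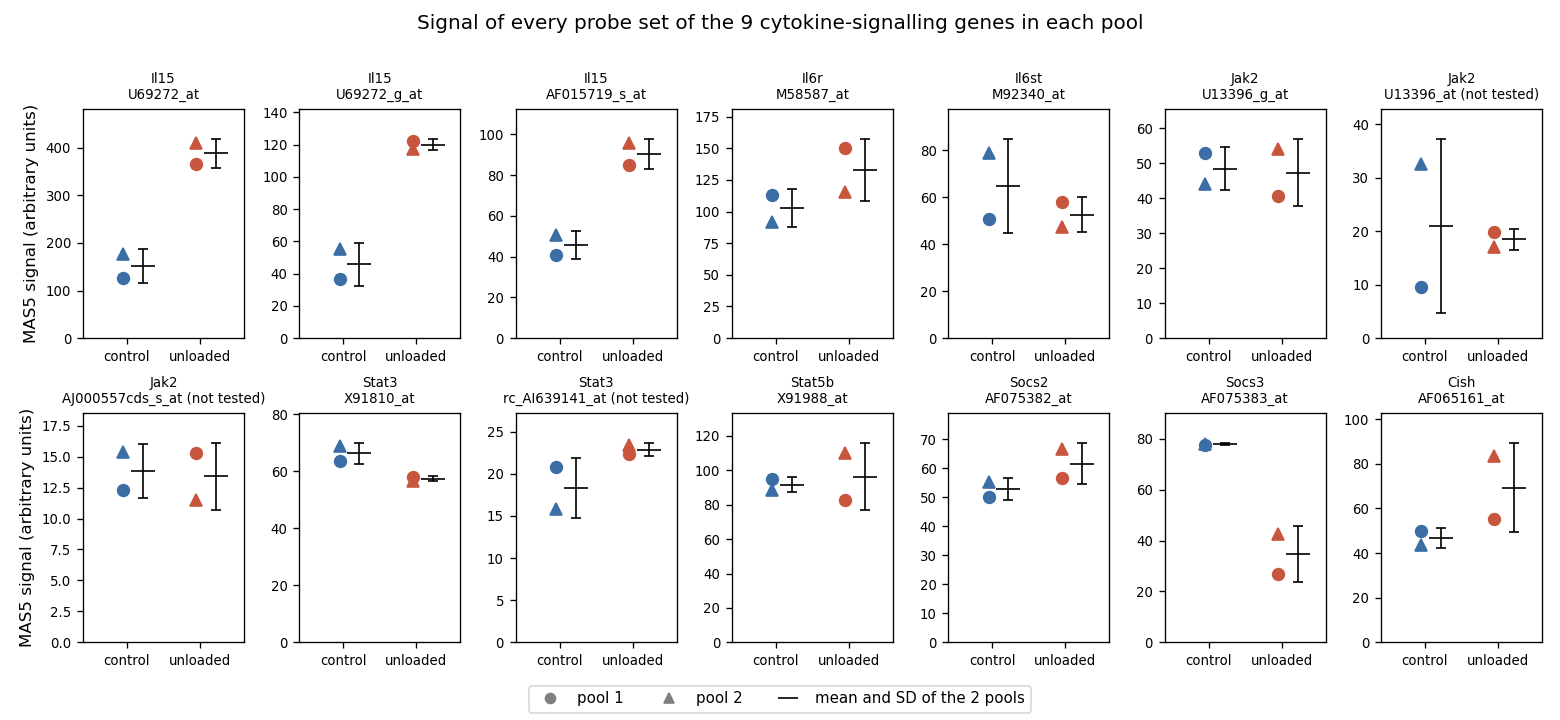
MAS5 signal (arbitrary units, linear axis from 0) of all 14 probe sets in each pool, with circles for pool 1, triangles for pool 2, and a bar with the mean and SD of both pools beside them. On U69272_at of Il15 the control pools read 126.6 and 176.4 and the unloaded pools 366.7 and 409.6, while the Socs3 control pools nearly coincide at 77.5 and 78.1 above unloaded pools at 26.9 and 42.5.

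Il15, the ligand of the group, is a cytokine that muscle fibres themselves express, best known for sustaining natural killer and memory T cells. On its brightest probe set, U69272_at, the signal was 126.6 and 176.4 in the control pools and 366.7 and 409.6 in the unloaded pools. The lower unloaded pool thus lay well above the higher control pool, and the gap between groups exceeded the gap within either. The mean went from 151.5 ± 35.2 (SD, n = 2) to 388.1 ± 30.3 (SD, n = 2), a ratio of means of 2.56. On the log2(signal + 9) scale used for all differences here, that is 1.32 (SE 0.16), and 14 of the 5257 tested probe sets, this one included, had a difference at least as high.

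The probe set U69272_g_at is named for the same sequence record, so it is not an independent reading of Il15. It gave 36.4 and 55.0 in controls against 122.5 and 117.5 in unloaded pools, with a log2 difference of 1.26 (SE 0.18). The third probe set, AF015719_s_at, gave 40.7 and 50.4 in controls against 85.0 and 95.5, with a log2 difference of 0.87 (SE 0.16). No control pool reached an unloaded pool on any of the 3. In controls, pool 2 was above pool 1 on all 3 probe sets, by 0.45, 0.50 and 0.26 on the log2 scale. The ratio of mean signals ranged from 1.98 to 2.63, so the size of the Il15 difference depended on the probe set while its direction did not.

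The Il15 calls did not hold in every fit. With all 4 arrays but no filter on dim probe sets, U69272_at was called, and U69272_g_at and AF015719_s_at were not. With unloaded pool 1 left out, none of the 3 probe sets was called, and the same held with unloaded pool 2 left out. Without control pool 1 or without control pool 2, AF015719_s_at was not called and the other two were. The log2 difference on U69272_at nevertheless stayed between 1.10 and 1.55 over these 4 refits, and on AF015719_s_at between 0.74 and 1.00.

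Both receptor chains serve the interleukin 6 family: Il6r binds interleukin 6, and Il6st, also called gp130, is the chain that passes the signal inward. Il6r read 113.1 and 92.0 in controls and 150.1 and 115.2 in unloaded pools. The groups did not overlap, but only just, since the upper control pool and the lower unloaded pool were nearly equal. The log2 difference was 0.34 (SE 0.17) and Il6r was not called. Il6st read 50.8 and 79.0 in controls and 57.8 and 47.4 in unloaded pools. Its groups overlapped, and the control pools were 0.56 apart on the log2 scale, more than the groups were (-0.24, SE 0.21). Without control pool 2 the difference was 0.04, so its sign rested on that pool.

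Jak2, the kinase that couples many of these receptors to STATs, had 3 probe sets, of which U13396_g_at was bright enough to test. Its signal was 52.8 and 44.1 in controls and 40.5 and 54.1 in unloaded pools. These ranges overlapped almost completely, with a log2 difference of -0.04 (SE 0.19). The dimmer U13396_at spread from 9.5 to 32.5 between the control pools and read 19.9 and 17.1 in unloaded pools. The third, AJ000557cds_s_at, read 12.3 and 15.4 against 15.3 and 11.5. None of the 3 separated the groups, and the differences on the dim ones were -0.01 (SE 0.40) and -0.03 (SE 0.19).

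Stat3 is the factor downstream of interleukin 6 and Il6st. Its tested probe set X91810_at read 63.7 and 68.8 in controls and 58.0 and 56.7 in unloaded pools. The unloaded pools lay below the controls without overlap, at a log2 difference of -0.18 (SE 0.14) that was not called. Its dim probe set rc_AI639141_at went the other way, with 20.8 and 15.8 in controls and 22.3 and 23.4 in unloaded pools (0.23, SE 0.20). The Stat3 probe sets therefore gave opposite signs. Stat5b, which carries growth hormone and Il15 signals, read 94.9 and 88.6 in controls and 82.5 and 110.1 in unloaded pools. The unloaded pools fell on either side of both controls, and the log2 difference was 0.05 (SE 0.16).

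The inhibitors gave unlike values. Socs3, which blocks JAKs at Il6st, read 77.5 and 78.1 in controls and 26.9 and 42.5 in unloaded pools. The control pools were almost identical, and both unloaded pools were far below them, though apart from each other by 0.52 on the log2 scale. The mean went from 77.8 ± 0.424 (SD, n = 2) to 34.7 ± 11.0 (SD, n = 2), 2.24-fold lower in the unloaded pools, with a log2 difference of -1.01 (SE 0.20). The difference ranged from -1.27 without unloaded pool 2 to -0.75 without unloaded pool 1. Socs3 stayed called without unloaded pool 2 and was not called without unloaded pool 1, without control pool 1 or without control pool 2. It was also not called with the pool number as a replicate block, without a mean-variance trend, or without the filter on dim probe sets.

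Cish, an inhibitor of STAT5 signalling at the receptor, read 49.9 and 43.6 in controls and 55.1 and 83.4 in unloaded pools. Both unloaded pools were above the controls, pool 2 clearly and pool 1 by a margin similar to the gap between the controls. The log2 difference was 0.47 (SE 0.20), and it was 0.20 without unloaded pool 2 and 0.73 without unloaded pool 1. Cish was called in none of the 13 alternative fits. Socs2, which restrains growth hormone signalling, read 50.1 and 55.4 in controls and 56.6 and 66.6 in unloaded pools. Its groups touched without overlapping, with a log2 difference of 0.19 (SE 0.16) and no call.

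**Figure D2:**
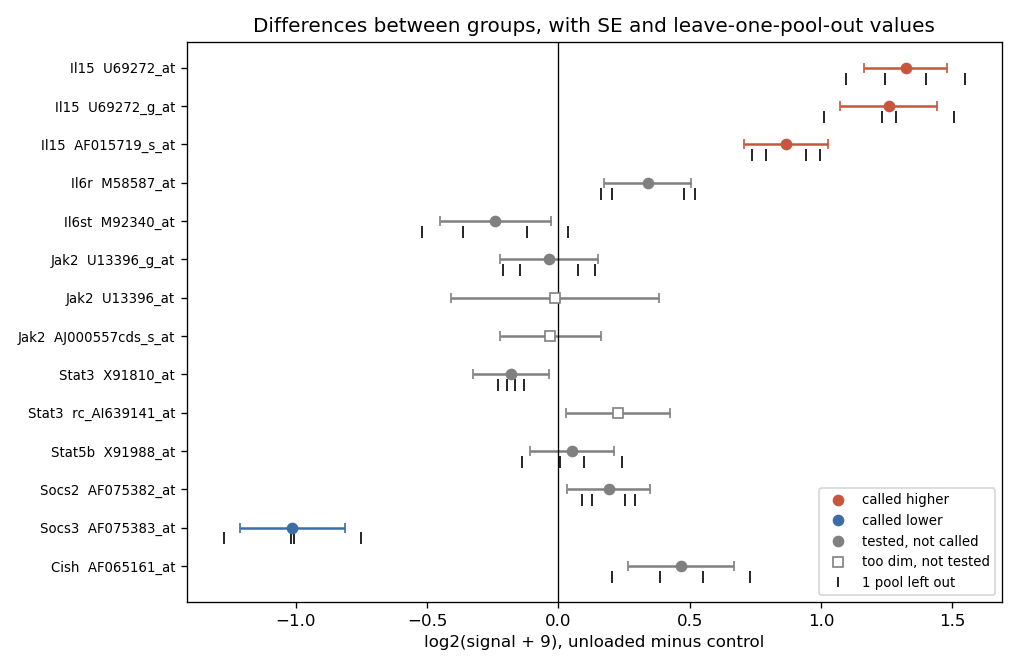
Log2(signal + 9) difference, unloaded minus control, of each of the 14 probe sets, with the SE from limma as bars and the values with 1 pool left out as ticks under tested probe sets. The 3 Il15 points lie at 0.87 to 1.32 and Socs3 at -1.01 with all ticks on the same side of 0, whereas ticks of Il6st, Jak2 and Stat5b fall on both sides.

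Over the 11 tested probe sets, both unloaded pools were above both controls for 6 and below both for 2, while the groups overlapped for 3. With 2 pools a group such separation is common: 25.5% of all tested probe sets had both unloaded pools above, and 25.3% had both below. Separation without overlap alone, as for Il6r, Stat3, Socs2 and Cish, was therefore frequent on the whole array.

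Other genes of the pathway were followed through 5 lists: ligands, receptors, kinases and STATs, inhibitors with some adaptors, and known STAT targets. The pathway genes Fos, Junb, Igf1 and Cdkn1a were left out of the lists because their values in these data had been shown before. The counts and medians below do not cover them, so they do not describe the whole pathway. Of 112 listed genes, 74 had a probe set naming 1 gene, and 47 had 1 or more that was tested, 76 probe sets in all. None of the 76 was called by limma at an adjusted p under 0.05. At an unadjusted p under 0.05 there were 10, 3 higher and 7 lower, which is 13.2% of them, against 20.8% of all tested probe sets. Without a mean-variance trend there were also 0 calls, and with robust variance estimates 2. The smallest adjusted p by limma was 0.0546. The median log2 difference of the 76 was -0.03, against 0.00 over all tested probe sets.

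**Figure D3:**
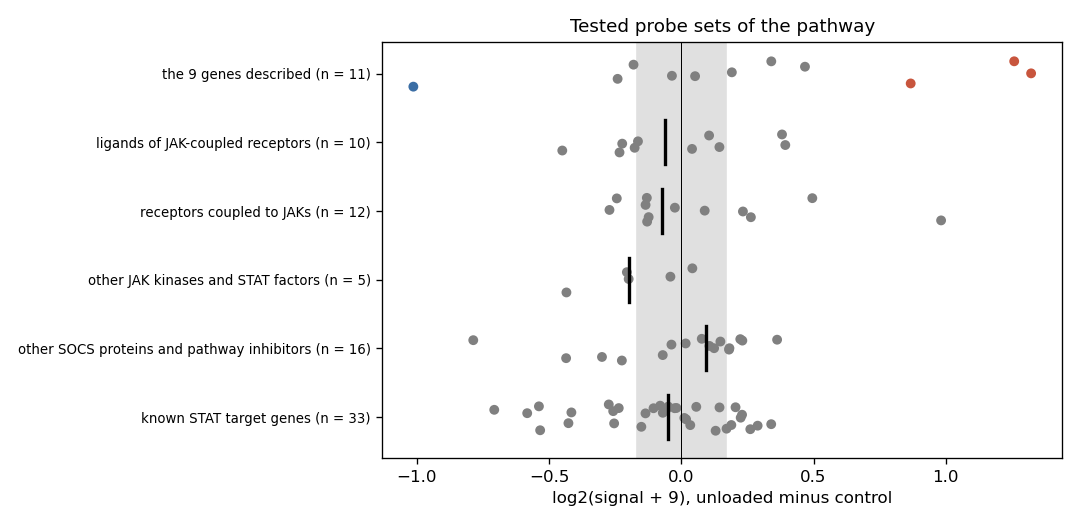
Log2(signal + 9) difference of every tested probe set of the 9 genes and of the 5 lists, 1 point each with vertical jitter, black bars for the list medians, and a grey band from -0.17 to 0.17 that holds the middle of all tested probe sets between their quartiles. The coloured points are the 3 Il15 probe sets on the right and Socs3 on the left; no point of the 5 lists was called.

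Among ligands, 10 probe sets of 8 genes were tested, with a median of -0.06. The brightest genes were Lep at -0.16 (SE 0.12), the gp130 cytokine Ctf1 at 0.14 (SE 0.15), thrombopoietin (listed as Thpo, now Thpol1) at 0.38 (SE 0.35), and Csf3 at -0.18 (SE 0.17). These are the brightest probe set of each gene: a second one gave -0.22 (SE 0.23) for Lep and -0.23 (SE 0.19) for Thpol1. The Lep probe sets differed widely in mean signal, at 879.6, 32.3 and 12.7, the last too dim to test. Its place among the brightest thus rests on 1 probe set. Il6 itself, the ligand of Il6r, was too dim to test, with mean signals of 4.25 and 1.32 on its 2 probe sets. Among receptors, 12 probe sets of 9 genes had a median of -0.07. For the growth hormone receptor Ghr the brightest probe set read -0.12 (SE 0.11) and the others 0.23 (SE 0.14) and 0.26 (SE 0.15). Il4r gave -0.13 (SE 0.14), Csf2rb -0.24 (SE 0.17) and Ifngr1 -0.14 (SE 0.15).

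Besides these, 2 receptors were picked out after their values were seen. The interferon receptor chain Ifnar1 read 26.5 ± 11.2 in controls and 59.4 ± 2.83 in unloaded pools (SD, n = 2 each), a log2 difference of 0.98 (SE 0.23), and narrowly missed the threshold (limma adjusted p = 0.0546). Il2rb, a chain of the Il15 receptor, gave 31.6 ± 10.0 and 47.4 ± 3.54 (0.50, SE 0.21) and was not called. The alpha chain Il15ra and the common gamma chain Il2rg had no probe set naming them alone.

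Of other kinases and STATs, 5 probe sets were tested with a median of -0.20. Jak1 gave -0.21 (SE 0.14), Stat6 -0.04 (SE 0.16), Stat2 0.04 (SE 0.18), and Stat5a, the close relative of Stat5b, -0.43 (SE 0.22) and -0.20 (SE 0.21). The list of other inhibitors also holds adaptors such as Sh2b1, not all of which inhibit. Its 16 tested probe sets of 9 genes had a median of 0.09. The brightest probe set of the phosphatase Ptpn1 gave 0.18 (SE 0.10), Socs7 -0.22 (SE 0.11), Pias2 -0.04 (SE 0.14) and the adaptor Sh2b1 0.08 (SE 0.11). The 4 other tested Ptpn1 probe sets gave -0.30 to 0.18, and the second of Sh2b1 gave 0.11 (SE 0.13). At an unadjusted p under 0.05 by limma there were 2 in the inhibitor list, both lower and named after their values were seen. They were of Sh2b2 at -0.44 (SE 0.16) and of Ptpn11 at -0.79 (SE 0.29). The other tested Ptpn11 probe set gave 0.23 (SE 0.18). None of these 2 lists' probe sets was called.

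Known STAT targets had 33 tested probe sets of 17 genes, with a median of -0.05. At an unadjusted p under 0.05 by limma there were 6, 1 higher and 5 lower. The higher one was of Cebpb, and the lower ones were of Bcl2l1, Cebpd, Ccnd1 and Myc. The transcription factor Cebpb gave 0.29 (SE 0.09) and 0.17 (SE 0.10), the kinase Pim3 0.14 (SE 0.11), the protease inhibitor Timp1 0.20 (SE 0.12) and 0.02 (SE 0.20), and Irf1 0.06 (SE 0.13). The acute-phase factor Cebpd, picked out after its values were seen, gave -0.54 (SE 0.15) on one probe set and 0.19 (SE 0.16) and 0.23 (SE 0.16) on others. The survival gene Bcl2l1, picked out in the same way, gave -0.58 (SE 0.14) on one probe set and -0.25 (SE 0.14) and -0.26 (SE 0.15) on others, and the first was lower with an adjusted p under 0.05 in 2 alternative fits.

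Profiles most like that of Il15 were sought over the 4 pools, as the smallest root mean square distance between log2 values centred on the control mean, among 3151 other genes. The nearest were Txnip at a distance of 0.13, Klf10 at 0.14, Mxd4 at 0.17, Lipa at 0.18 and Pfkfb1 at 0.18. For comparison, the other Il15 probe sets lay at 0.09 and 0.33. The genes nearest to Cish were Stx1a, Pfkfb1 (on another of its probe sets), Sec31a, Hnrnpa1 and Plpp2, at distances of 0.09 to 0.10. With 4 pools, many genes share a shape, and the ranking describes these arrays only.

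**Figure D4:**
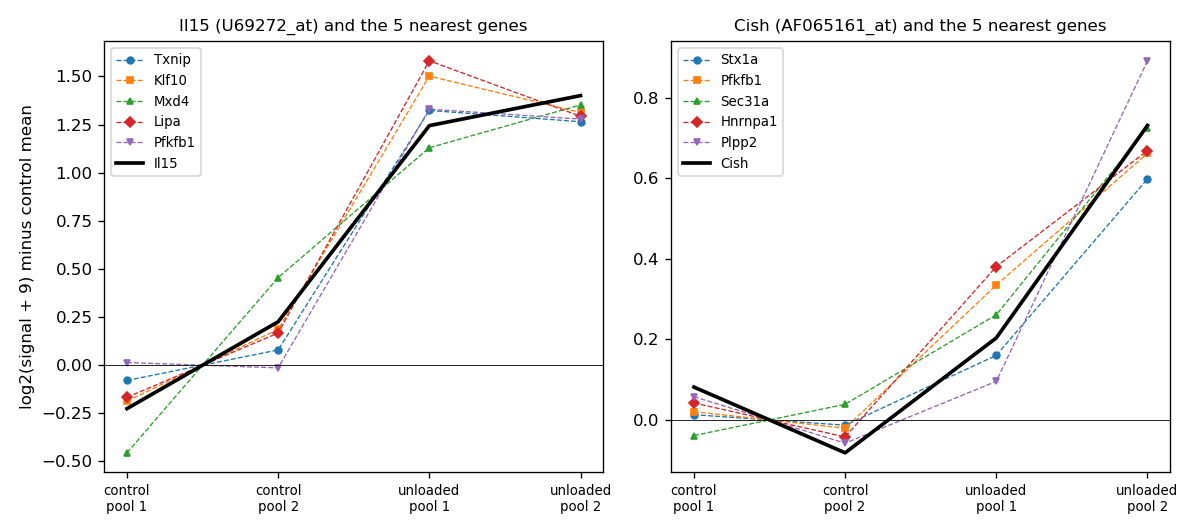
Log2(signal + 9) minus the mean of the control pools in each of the 4 pools for Il15 (left) and Cish (right) in black, with the 5 nearest genes dashed; lines join the pools of 1 gene and imply no order. The Il15 set sits near one level in both unloaded pools, and the Cish set is higher in unloaded pool 2 than in unloaded pool 1.

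The 15 probe sets of 9 genes listed as slow-muscle markers, some of which fast muscle also expresses, summed to between 76410 and 84473 signal units per pool, and none was called. Slow against fast identity was not tested here. Leukocyte markers, listed because blood and immune cells also make cytokines, summed to 2449 and 2951 in controls and 3067 and 2775 in unloaded pools over 32 probe sets. None of the 19 tested was called, and no probe set was at 0 in any pool. At an unadjusted p under 0.05 by limma there were 3, all higher, against 20.8% of all tested probe sets in either direction. They were of RT1-Da at 0.34 (SE 0.10), C1qb at 0.31 (SE 0.11) and Cd48 at 0.29 (SE 0.12). Another probe set gave -0.20 (SE 0.16) for RT1-Da and 0.24 (SE 0.18) for C1qb. The pan-leukocyte marker Ptprc was dim, with mean signals from 2.83 to 16.5 on its 3 probe sets. Adipocyte markers summed to 9841 and 10336 in controls and 7909 and 8596 in unloaded pools, and 3 probe sets of the lipase Lpl carried most of each sum. Without Lpl the sums were 1422 and 1644 in controls and 1310 and 1552 in unloaded pools, which overlap. Most of each came from 1 Lep probe set, at 865.6 and 992.1 in controls and 745.9 and 914.9 in unloaded pools. The other Lep probe sets were dim, with mean signals of 32.3 and 12.7. Pparg and Plin1 were dim, with mean signals of 27.5 and 14.4. These sums thus follow Lpl and Lep more than the list, and do not measure fat cell content. The 8 tested adipocyte probe sets had a median log2 difference of -0.23, and 1 was called, an Lpl probe set that was lower. Over the whole array, 2.66% of tested probe sets were called lower. At an unadjusted p under 0.05 by limma, 3 of the 8 were lower and 1 was higher, against 20.8% of all tested probe sets in either direction. The lower ones were of Lpl and of Cfd, with -0.61 (SE 0.19) for Cfd. The higher one was the fatty acid binding protein gene Fabp4 at 0.31 (SE 0.11), not called. Endothelial markers (4 tested) and blood markers (6 tested) had no call. At an unadjusted p under 0.05 by limma there were 0 endothelial and 2 blood probe sets, both higher, against the same 20.8%. Endothelial sums were 388.8 and 400.6 in controls against 339.3 and 360.1, and blood sums 7000 and 7388 against 8155 and 7874. In both cases the groups did not overlap, with unloaded pools lower for endothelial and higher for blood sums. Most of each blood sum came from hemoglobin probe sets, of Hbb at 0.21 (SE 0.08) and Hbb-b1 at 0.06 (SE 0.09). Among endothelial genes, Flt1 gave -0.23 (SE 0.13) and Kdr -0.63 (SE 0.31). Pecam1 gave 0.02 (SE 0.12) and Vwf -0.03 (SE 0.20). Of all tested single probe sets, 25.5% separated upward and 25.3% downward. These sums do not measure cell content either. The part of these cells in the Il15 and Socs3 differences was not tested.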

How the data were processed

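The authors deposited 1 table of signal intensity per probe set for 4 arrays, made with MAS5 per the submitters' processing notes (its version and scaling target: not given in the sources used here; detection calls not used here). Of 8799 probe sets, 59 Affymetrix controls were left out. Of the rest, 7006 had 1 symbol (6985 updated by gene ID to RefSeq's GRCr8 table, 21 kept), 308 several and 1426 none. Signals were transformed as log2(signal + 9), 9 being the 25th percentile of all signals, so that changes of weak signals appear smaller than they are. The test kept the 5257 probe sets whose signal averaged 21.0 (the 40th percentile) or more, and no further normalization was applied. The groups were contrasted in R 4.3.3 by limma 3.58.1 (lmFit, eBayes with trend, 2 residual and 5.80 prior degrees of freedom), with Benjamini-Hochberg adjustment over all 5257. Of these, 276 were called and 1092 had an unadjusted p under 0.05. The script was tested on simulated data. Standard errors of the 3 dim member probe sets come from the fit without a filter.

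The 9 genes and the gene lists were chosen with earlier results of these data known. Named by rule were all members, genes of the 5 pathway lists that passed (none did), up to 4 of the brightest genes per pathway list, and the 5 nearest profiles. Other genes, such as Ifnar1, Il2rb, Ptpn11, Sh2b2, Cebpd, Bcl2l1, Ccnd1, Myc and the marker genes, were named after their values were seen. Promoter windows are RefSeq's (GRCr8). Alternatives were quantile or median scaling, other offsets and filters, no trend, robust estimates, the pool number as a block, each array left out and platform symbols. The labels do not say that equal pool numbers were handled together. Figures were drawn with matplotlib 3.10.9.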

Additional observations from a re-analysis of the deposited data

How the results depend on the processing

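With 4 arrays, every call rests on few pools. Where 1 pool was left out, the lone pool of its group was assumed to vary like the other group. Over the whole array 276 probe sets were called, against 90 without a filter, 113 without a mean-variance trend, 165 with the replicate block and 67 to 84 with 1 pool left out. Of the member probe sets 4 were called, against 1 (Il15 on U69272_at) without a filter, 3 with the replicate block or without a mean-variance trend, which both lose Socs3, and 0 to 2 with 1 pool left out. The filter at the 60th percentile removed Socs3 from the test. Of the other pathway probe sets 0 were called, against 1 with median scaling (Ifnar1), 1 with the offset at the 50th percentile (Ifnar1), 1 with the filter at the 60th percentile (Bcl2l1) and 2 with robust estimates (both). Same-numbered pools did not deviate together over the array (correlation -0.04 across probe sets). That value does not tell whether they were handled together. Under the larger offset (50th percentile), log2 differences came to 0.95 for Il15 on U69272_g_at, 0.64 on AF015719_s_at and -0.71 for Socs3. A member's sign changed 4 times, all with 1 pool left out and none for a called probe set: for Il6st, for Jak2 (2 settings) and for Stat5b. Signals near the offset, as for the untested probe sets of Jak2 and Stat3 (mean signals 13.6 to 20.6), limit what these can show. The unloaded Socs3 pools, at 26.9 and 42.5, were weak too, so the size of the Socs3 difference depends on the offset.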
